A study of Homo sapiens with 12 samples.

Results

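The genes described here are the death receptors and the regulators of caspase-8, in melanoma cells treated with the RAF inhibitor vemurafenib. They were picked by symbol: FAS, TNFRSF1A, TNFRSF21, TNFRSF10A, TNFRSF10B, TNFRSF10D, TNFRSF12A, TNFSF10, CASP8, and CFLAR. All 10 were found among the 23273 genes listed for each line. The measurements were FPKM values (fragments per kilobase of transcript, scaled to library size) from 12 stranded mRNA libraries of COLO858 and MMACSF, both BRAF V600E melanoma cell lines. Each line had 2 libraries from cells in DMSO, the vehicle, 2 from cells in 0.2 μM vemurafenib for 24 h, and 2 from cells in the drug for 48 h. The study asked how the lines, which differ in their long-term response to RAF inhibition, adapt to the drug. The replicates came from separate plates of 1 line, so p-values measure only the spread between these plates. That spread includes any offset shared by libraries of the same replicate number, as described at the end. The harvest time of the DMSO-treated cells is not labeled, and both drug times share the same 2 DMSO libraries.

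Death receptors are members of the tumor necrosis factor (TNF) receptor family that carry a death domain in the cytoplasm. When a ligand clusters FAS or a TRAIL receptor, the adaptor FADD recruits caspase-8, which cleaves itself and then the executioner caspases. The product of CFLAR, called c-FLIP, resembles caspase-8, enters the same complex, and limits its activation. Receptors such as the product of TNFRSF1A mainly signal to survival and inflammation through NF-κB unless that branch is blocked.

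The libraries were first checked as a whole. The sum of FPKM, which is not a depth, was 670310 to 1013038 per library, and 11679 to 11972 genes reached 1 FPKM. Small RNA genes took 20.8% to 27.3% of the sum in the libraries numbered 1 and 33.6% to 50.6% in those numbered 2. Read depth is unknown, so no counting interval can be given for a single library. Of 7 melanocytic markers, 7 reached 1 FPKM in MMACSF and 6 in COLO858. MLANA, a melanosome protein, was at 0.299 to 0.725 FPKM in COLO858 and TYR, the tyrosinase gene, at 0.282 to 1.21. The 7 markers of blood, epithelial, endothelial, and muscle cells were all under 1 FPKM, with summed levels of 0.315 to 0.923 in COLO858 and 0.151 to 0.457 in MMACSF. DUSP6, a phosphatase gene switched on by MAPK signaling, had log2 changes against DMSO of -1.46 (24 h) and -0.93 (48 h) for COLO858 and of -1.66 and -1.80 for MMACSF. All 4 of these were past the threshold used below. SPRY4 and ETV5, also chosen to check the treatment, were lower past it in the same 4 comparisons. PHLDA1, the remaining gene of this check, overlapped DMSO each time. Its mean was 1.11 (24 h) and 0.86 (48 h) times that in DMSO for COLO858 and 0.87 and 0.81 times for MMACSF.

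Under DMSO the receptors spanned a wide range of levels. FPKM is scaled to transcript length, so levels can be set side by side within a line. In COLO858 the order of mean FPKM under DMSO was TNFRSF12A (85.0 ± 13.3, SD, n = 2), TNFRSF10B (64.0 ± 5.92), TNFRSF1A (62.0 ± 4.46), TNFRSF21 (12.5 ± 0.369), CASP8 (8.98 ± 1.19), CFLAR (6.71 ± 0.888), and FAS (1.63 ± 0.190). Neighbors in that order did not overlap, except TNFRSF10B and TNFRSF1A. In MMACSF the order was TNFRSF10B (38.9 ± 4.48), TNFRSF12A (37.5 ± 7.21), TNFRSF1A (28.3 ± 3.58), TNFRSF21 (15.3 ± 1.38), CFLAR (5.49 ± 0.389), CASP8 (4.67 ± 0.838), and FAS (3.75 ± 1.00). There TNFRSF10B and TNFRSF12A overlapped, as did CFLAR with CASP8 and CASP8 with FAS. The other 3 genes, TNFRSF10A, TNFRSF10D, and TNFSF10, stayed under 1 FPKM in each of the 12 libraries.

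After 48 h of vemurafenib the order was different. In COLO858 it ran from TNFRSF1A (82.5 ± 10.8) to TNFRSF12A (53.4 ± 5.55), TNFRSF10B (50.6 ± 2.14), TNFRSF21 (32.7 ± 0.717), FAS (12.8 ± 2.31), CFLAR (9.46 ± 2.82), and CASP8 (5.07 ± 0.160). Of these neighbors, TNFRSF12A overlapped with TNFRSF10B and FAS with CFLAR. In MMACSF it ran from TNFRSF10B (25.2 ± 0.560) to TNFRSF1A (21.9 ± 0.631), TNFRSF21 (6.34 ± 1.02), FAS (6.22 ± 0.243), CFLAR (5.10 ± 0.596), CASP8 (4.16 ± 0.620), and TNFRSF12A (3.21 ± 1.69). Here TNFRSF21 and FAS overlapped, as did CASP8 with TNFRSF12A. FAS thus left the last place of the 7 in COLO858, and TNFRSF12A took it in MMACSF.

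**Figure D1:**
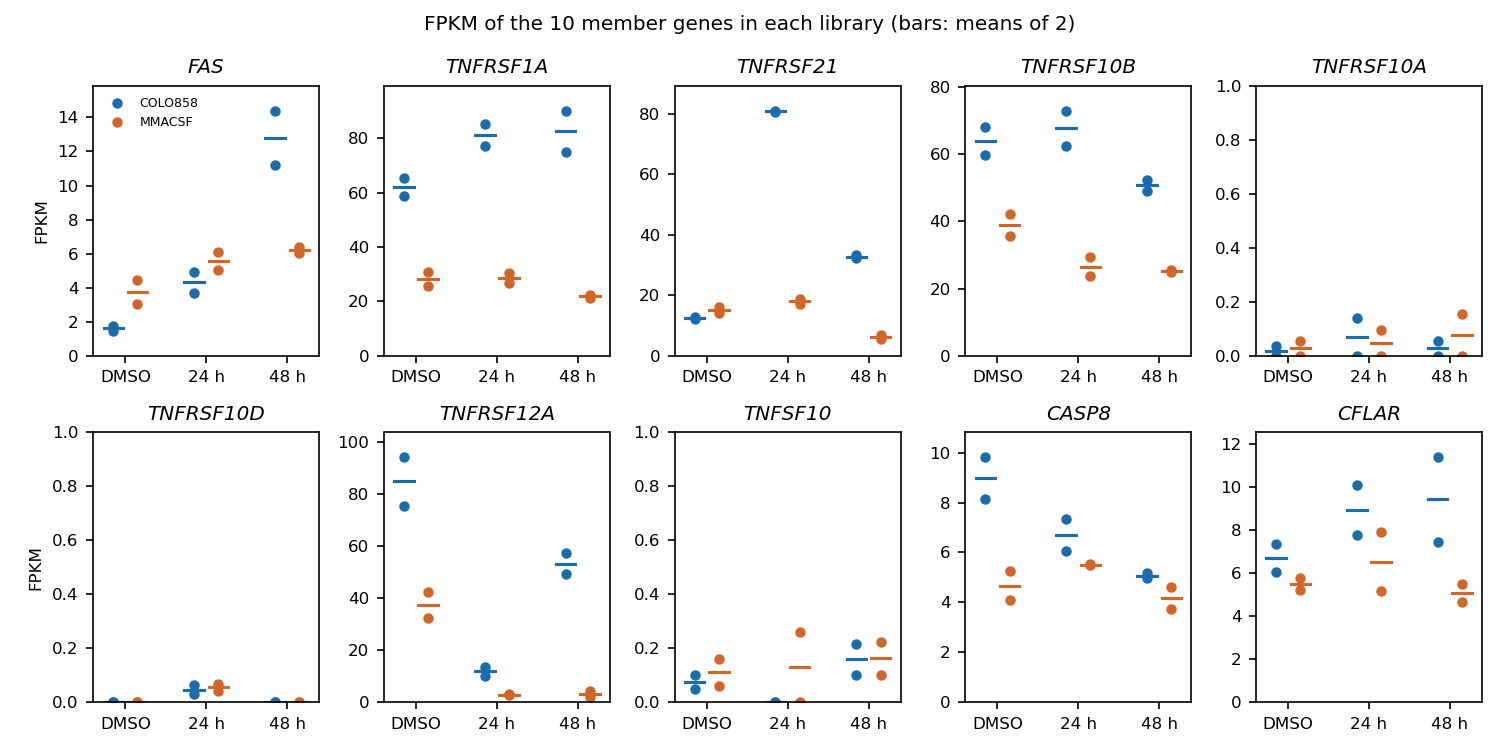
FPKM (vertical axes, linear, from 0) of each of the 10 genes in DMSO and after 24 and 48 h in vemurafenib. Points are single libraries of COLO858 (blue) and MMACSF (orange), and bars are the means of 2. FAS rose to 14.4 FPKM in COLO858 at 48 h, TNFRSF21 reached 81.1 FPKM there at 24 h, and TNFRSF10A, TNFRSF10D, and TNFSF10 stay near 0.

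Changes were tested with limma on log2(FPKM + 1), a scale that understates the change of genes at low levels. A line's genes were tested if their mean reached 1 FPKM in DMSO or at either drug time, and a gene was counted as changed at a Benjamini-Hochberg adjusted p under 0.01 over all genes tested. The 7 members other than TNFRSF10A, TNFRSF10D, and TNFSF10 passed this minimum in both lines. The replicate number was not in the fit. With it as a block more members, and more of all genes, were called against DMSO in both lines, as given at the end. In COLO858 1 of 7 was higher and 1 lower at 24 h, beside 9.82% of all 12696 genes tested that changed in either direction. At 48 h the drug-treated cells had 2 members higher and 0 lower, with 9.47% of all genes changed. Between 24 and 48 h 1 rose and 1 fell, with 1.38% of all genes changed. In MMACSF 0 of 7 were higher and 1 lower at 24 h, beside 5.83% of 12599 genes. At 48 h 0 were higher and 2 lower, beside 8.83%. Between 24 and 48 h limma called 0 of 7 in MMACSF, where 2 had an unadjusted p under 0.05 and 0.222% of all genes changed. The median log2 change of the 7 against DMSO was 0.36 at 24 h and 0.40 at 48 h in COLO858, where the median of all genes tested was 0.06 and -0.01. In MMACSF the medians of the 7 were 0.19 and -0.35, and those of all genes 0.07 and 0.07. These changes are of RNA from a whole plate, in which fewer cells of a kind and less RNA per cell cannot be told apart.

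**Figure D2:**
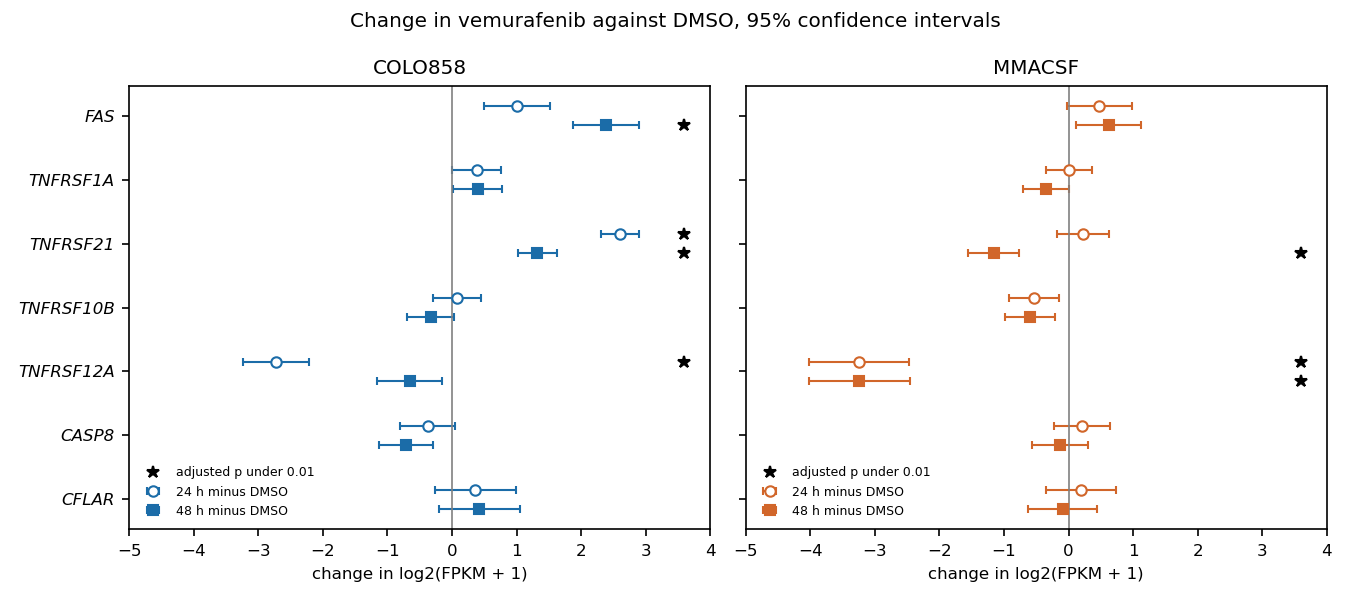
Change in log2(FPKM + 1) against DMSO (horizontal axis) for the 7 genes tested, after 24 h (open circles) and 48 h (filled squares), in COLO858 (left) and MMACSF (right). Bars are 95% confidence intervals from limma, and stars mark an adjusted p under 0.01. TNFRSF21 lies at 2.60 and 1.32 in COLO858 and at 0.23 and -1.16 in MMACSF.

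FAS, the receptor for Fas ligand (chr10:90750414-90775542 on the plus strand of GRCh37), rose in COLO858. Its FPKM was 1.49 and 1.76 in DMSO, 3.67 and 4.95 at 24 h, and 11.2 and 14.4 at 48 h. The 3 groups did not overlap, and the mean at 48 h was 7.87 times that in DMSO. The log2 change was 1.01 (SE 0.20, adjusted p = 0.0220) at 24 h, short of the threshold, and 2.38 (SE 0.20, adjusted p = 0.00216) at 48 h. In MMACSF FAS was at 3.04 and 4.46 FPKM in DMSO, 5.02 and 6.10 at 24 h, and 6.04 and 6.39 at 48 h. There both drug groups lay above the DMSO libraries, but the changes of 0.48 (95% interval -0.02 to 0.98) and 0.62 (0.12 to 1.12) were not past the threshold. With 1 of the 4 libraries left out, the change at 48 h in COLO858 was 2.21 to 2.56 and was past the threshold in 0 of 4 fits (adjusted p = 0.0148 to 0.0237). The gene overlaps ACTA2 on the other strand, and the strand setting used in counting is not given in the sources used here.

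TNFRSF21, or death receptor 6 (chr6:47199268-47277641, minus strand), rose in COLO858, most at 24 h. It was at 12.8 and 12.2 FPKM in DMSO, 81.1 and 80.7 at 24 h, and 32.2 and 33.2 at 48 h. The SD of the replicates was 0.258 to 0.717 FPKM, and the 3 groups stood far apart. The change against DMSO was 2.60 (SE 0.12, adjusted p = 0.000678) at 24 h and 1.32 (SE 0.12, adjusted p = 0.00259) at 48 h. Between 24 and 48 h the gene fell by 1.28 on the log2 scale (adjusted p = 0.00785), so the rise was partly undone. MMACSF cells had 14.3 and 16.3 FPKM in DMSO, 17.2 and 18.9 at 24 h, and 5.62 and 7.06 at 48 h. The change there was 0.23 (95% interval -0.17 to 0.62) at 24 h and -1.16 (SE 0.16, adjusted p = 0.00753) at 48 h, where the mean in DMSO was 2.415 times that in the drug in FPKM. With 1 of the 4 libraries left out, the change at 24 h in COLO858 stayed at 2.57 to 2.63 in the 4 fits. Its call, but not the rise, was lost when either library of the 24 h group was left out. The calls at 48 h were past the threshold in 0 of 4 such fits in either line, at 1.29 to 1.35 in COLO858 (adjusted p = 0.0222 to 0.0271) and -1.30 to -1.01 in MMACSF (adjusted p = 0.0420 to 0.0578), and that between 24 and 48 h was as well (adjusted p = 0.0655 to 0.07925).

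The promoters of FAS and TNFRSF21 are shown because only these 2 of the 7 genes were called higher than in DMSO. These calls were made in COLO858, without the replicate block in the fit. The sequences are the 250 bases before a start site in RefSeq on GRCh38.p14, written in the direction of the gene. The FAS window, at chr10:88990548-88990797 on the plus strand, is the first of 3 that RefSeq lists for the gene, and the TNFRSF21 window is at chr6:47309906-47310155 on the minus strand. Capitals mark matches, on either strand, to the AP-1 motif TGANTCA, the cyclic AMP response element TGACGTCA, the ETS motif CCGGAAG, or the Sp1 motif GGGCGG.
FAS: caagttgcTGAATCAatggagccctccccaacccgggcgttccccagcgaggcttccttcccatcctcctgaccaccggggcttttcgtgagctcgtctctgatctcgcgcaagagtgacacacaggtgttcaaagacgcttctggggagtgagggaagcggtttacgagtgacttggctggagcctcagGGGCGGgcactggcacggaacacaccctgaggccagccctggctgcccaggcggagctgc
TNFRSF21: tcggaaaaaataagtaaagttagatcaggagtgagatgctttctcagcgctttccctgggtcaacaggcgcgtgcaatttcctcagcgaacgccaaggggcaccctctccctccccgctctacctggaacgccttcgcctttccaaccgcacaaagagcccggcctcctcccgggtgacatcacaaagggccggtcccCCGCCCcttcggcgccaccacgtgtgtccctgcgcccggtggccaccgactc
The FAS window shown, the only 1 of 3 with the AP-1 motif, held 1 AP-1 match, whose first base is at -242 from the start, and 1 Sp1 match at -60. The TNFRSF21 window held 1 Sp1 match at -52. AP-1 was searched because the study dealt with the AP-1 factor c-Jun. Of all 35116 such windows in the table, 6.57% held the AP-1 motif, 1.65% the cyclic AMP response element, 8.52% the ETS motif, and 42.6% the Sp1 motif. Windows of 6 members were searched, 13 in all. AP-1 matches also stood in 1 of 3 windows of CASP8, at -61, and in 1 of 4 of CFLAR, at -160. The single windows of TNFRSF1A and TNFSF10 held none of the 4 motifs. A match gives the letters only and no binding was measured.

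TNFRSF12A, or Fn14 (chr16:3068446-3072384, plus strand), is the receptor for the cytokine TWEAK and has no death domain. In COLO858 its FPKM was 94.4 and 75.6 in DMSO, 13.7 and 10.3 at 24 h, and 57.3 and 49.5 at 48 h. All 3 groups were separate, with the lowest values at 24 h. It fell by 2.73 on the log2 scale at 24 h (SE 0.20, adjusted p = 0.00146), to a mean 7.08 times lower in FPKM. From 24 to 48 h it rose by 2.07 (SE 0.20, adjusted p = 0.00858), a call kept in 6 of 9 alternative settings (adjusted p up to 0.0398). At 48 h the difference from DMSO of -0.66 (95% interval -1.16 to -0.15, adjusted p = 0.0680) was not past the threshold. MMACSF cells had 42.6 and 32.4 FPKM in DMSO, 3.31 and 2.77 at 24 h, and 4.41 and 2.02 at 48 h. It fell by 3.24 at both times (SE 0.31, adjusted p = 0.00380 at 24 h and 0.00295 at 48 h), and the FPKM means were 12.3 and 11.7 times lower. The difference between 24 and 48 h in MMACSF was 0.00 (95% interval -0.78 to 0.78). With 1 of the 4 libraries left out none of these 4 calls was kept, although the changes stayed between -2.92 and -2.54 at 24 h in COLO858 (adjusted p = 0.0130 to 0.0154), 1.88 and 2.26 from 24 to 48 h (0.0480 to 0.0642), -3.44 and -3.05 at 24 h in MMACSF (0.0301 to 0.0394), and -3.66 and -2.82 at 48 h (0.0114 to 0.0311). The gene overlaps CLDN6 on the other strand.

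TNFRSF1A, TNF receptor 1 (chr12:6437923-6451280, minus strand), was among the most abundant receptors throughout. In COLO858 it was at 65.2 and 58.9 FPKM in DMSO, 85.3 and 76.9 at 24 h, and 90.1 and 74.9 at 48 h. Both drug groups lay above DMSO, by 0.38 (95% interval 0.00 to 0.76, adjusted p = 0.1225) and 0.40 (0.02 to 0.78, adjusted p = 0.112), which limma did not call. In MMACSF the values were 30.8 and 25.8 in DMSO, 30.4 and 26.7 at 24 h, and 22.3 and 21.4 at 48 h. Only the 48 h libraries lay outside the DMSO range there, with a change of -0.35 (-0.71 to 0.00, adjusted p = 0.132).

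TNFRSF10B, the TRAIL receptor also called DR5 (chr8:22877646-22926544, minus strand), was the one TRAIL receptor expressed above 1 FPKM by its group mean in both lines. In COLO858 it was at 59.8 and 68.1 FPKM in DMSO, 62.4 and 72.9 at 24 h, and 49.1 and 52.2 at 48 h. The 24 h group overlapped DMSO, with a change of 0.08 (95% interval -0.29 to 0.44) that turned to -0.03 under median-ratio scaling. The change at 48 h was -0.33 (-0.69 to 0.04, adjusted p = 0.160). In MMACSF it was at 35.7 and 42.1 FPKM in DMSO, 23.8 and 29.3 at 24 h, and 24.9 and 25.6 at 48 h. Both drug groups lay below DMSO, by -0.54 (-0.92 to -0.15, adjusted p = 0.0636) and -0.60 (-0.98 to -0.22, adjusted p = 0.0425), neither past the threshold. The gene overlaps RHOBTB2 on the other strand.

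The other TRAIL receptors and the ligand were scarce. TNFRSF10A (DR4), TNFRSF10D (the decoy receptor DcR2), and TNFRSF10C (the decoy receptor DcR1, not a member of the 10) lie beside TNFRSF10B on chromosome 8, between positions 22960434 and 23082615 of GRCh37. TNFRSF10A was at 0.0377 and 0 FPKM in DMSO, 0.139 and 0 at 24 h, and 0 and 0.0565 at 48 h in COLO858, and at 0 and 0.0555, 0.0949 and 0, and 0 and 0.154 in MMACSF. TNFRSF10D was listed at 0 in all 8 DMSO and 48 h libraries, while its 24 h libraries had 0.0309 and 0.0643 FPKM in COLO858 and 0.0432 and 0.0690 in MMACSF. TNFRSF10C did not exceed 1.09 FPKM in any library. These receptors share sequence, and how reads of 50 bases were divided among them is not given in the sources used here.

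TNFSF10, which encodes TRAIL itself (chr3:172223298-172241265, minus strand), was at 0.101 and 0.0501 FPKM in DMSO, listed at 0 in both 24 h libraries, and at 0.101 and 0.218 at 48 h in COLO858. In MMACSF it was at 0.0626 and 0.161, 0.262 and 0, and 0.103 and 0.224. FASLG, the ligand of FAS, was at 0.0970 FPKM or less in every library, and TNF, LTA, and LTB were listed at 0 in all 12. These levels are too low for a comparison between the groups.

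CASP8 (chr2:202098166-202226559, plus strand), the initiator caspase, was at 8.13 and 9.82 FPKM in DMSO, 6.04 and 7.33 at 24 h, and 4.96 and 5.18 at 48 h in COLO858. The 3 groups descended without overlap, but the changes of -0.38 (95% interval -0.80 to 0.05, adjusted p = 0.158) and -0.71 (-1.13 to -0.29, adjusted p = 0.0340) were not past the threshold. In MMACSF it was at 4.08 and 5.27 in DMSO, 5.50 and 5.53 at 24 h, and 3.72 and 4.60 at 48 h. The 48 h group overlapped DMSO there, and the changes were 0.21 (-0.23 to 0.65) and -0.13 (-0.57 to 0.31). The gene overlaps FLACC1 on the other strand.

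CFLAR (chr2:201980877-202041410, plus strand), the inhibitor, was at 6.08 and 7.34 FPKM in DMSO, 7.77 and 10.1 at 24 h, and 7.47 and 11.4 at 48 h in COLO858. The drug groups lay just above DMSO with a wide spread, and the changes were 0.36 (95% interval -0.26 to 0.99) and 0.42 (-0.21 to 1.05). In MMACSF it was at 5.22 and 5.77, 5.18 and 7.90, and 5.52 and 4.68, with overlapping groups and changes of 0.19 (-0.35 to 0.73) and -0.09 (-0.63 to 0.45). CASP10, a close relative of CASP8 that lies between CFLAR and CASP8 on chromosome 2, was at 0.219 to 0.932 FPKM across the 12 libraries.

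Since inhibitor and caspase compete within 1 complex, their ratio was formed in each library after the values were seen. In COLO858 CFLAR was at 0.748 and 0.747 times the FPKM of CASP8 in DMSO, 1.29 and 1.38 at 24 h, and 1.51 and 2.21 at 48 h. All 4 drug-treated libraries were above 1 and both DMSO libraries below it, a shift of 1.78-fold at 24 h and 2.44-fold at 48 h in the geometric mean. The ratio is of RNA levels per gene and no protein was measured for either, so a value of 1 marks no balance within the complex. Neither gene was called on its own. In MMACSF the ratio was 1.28 and 1.10 in DMSO, 0.941 and 1.43 at 24 h, and 1.48 and 1.02 at 48 h, with overlapping groups and folds of 0.978 and 1.04. With 2 libraries against 2, the exact two-sided permutation p cannot go below 0.333, which was its value at both times in COLO858.

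**Figure D3:**
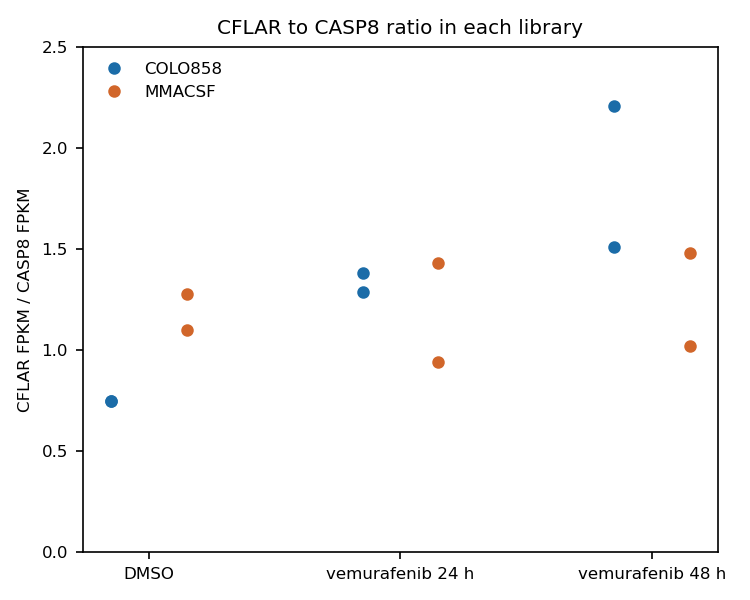
Ratio of CFLAR FPKM to CASP8 FPKM (vertical axis, linear, from 0) in each library of COLO858 (blue) and MMACSF (orange), in DMSO and after 24 and 48 h in vemurafenib. In COLO858 it goes from 0.747 and 0.748 in DMSO to 1.51 and 2.21 at 48 h, while the groups of MMACSF overlap.

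Other ratios moved as well, and are given as descriptions. FAS was at 0.184 and 0.179 times CASP8 in DMSO, 0.608 and 0.675 at 24 h, and 2.25 and 2.79 at 48 h in COLO858. In MMACSF that ratio was 0.744 and 0.846, 0.912 and 1.10, and 1.62 and 1.39. The summed FPKM of the 5 receptors tested was 216.6 to 246.1 in the 6 libraries of COLO858, where the 24 h libraries lay above both DMSO libraries and the 48 h group overlapped DMSO. In MMACSF the sum was 126.5 and 121 in DMSO, 79.8 and 83.7 at 24 h, and 63.2 and 62.5 at 48 h. The sum in MMACSF was lower in both drug groups than in DMSO, without overlap. Both sums count TNFRSF12A, which has no death domain, so neither is a total of death receptors. Of the 5, TNFRSF12A lost the most FPKM in MMACSF, with means of 37.5 (DMSO), 3.04 (24 h), and 3.21 (48 h). FAS lay above DMSO there at both times, but its changes were not past the threshold. Opposite changes lay within the COLO858 sum after 24 h. The TNFRSF12A mean was 12 against 85 under DMSO, and the TNFRSF21 mean 80.9 against 12.5.

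Whether the lines responded differently was tested as an interaction in 1 limma model of the 12 libraries, which compares each line's change from its own DMSO-treated cells. At 24 h 1 of 7 members differed, beside 3.71% of 13595 genes tested. At 48 h 3 differed, beside 7.48%, and all 3 responded more positively in COLO858. TNFRSF21 differed by 2.38 (SE 0.17, adjusted p = 0.000245) at 24 h and by 2.48 (SE 0.17, adjusted p = 6.99e-05) at 48 h. FAS differed by 0.53 (95% interval -0.12 to 1.18) at 24 h and by 1.76 (SE 0.28, adjusted p = 0.00430) at 48 h. TNFRSF12A differed by 0.52 (-0.40 to 1.43) at 24 h and by 2.58 (SE 0.40, adjusted p = 0.00353) at 48 h. For TNFRSF21 the calls held in all 8 fits that left out 1 library. That for FAS at 48 h held in 2 of 8 (1.55 to 1.98, adjusted p = 0.00613 to 0.0216), those without replicate 1 of COLO858 at 48 h and without replicate 1 of MMACSF in DMSO. That for TNFRSF12A held in 3 of 8 (2.16 to 3.01, adjusted p = 0.00215 to 0.0171), those without either replicate of MMACSF at 48 h and without replicate 2 of MMACSF in DMSO.

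Among members that did not pass, TNFRSF1A differed by 0.75 at 48 h (95% interval 0.31 to 1.20, adjusted p = 0.0341), TNFRSF10B by 0.62 at 24 h (0.16 to 1.08, adjusted p = 0.109), and CASP8 by -0.58 at 48 h (-1.10 to -0.06, adjusted p = 0.137). CFLAR differed by 0.17 (-0.62 to 0.96) and 0.51 (-0.28 to 1.30). The difference in the change from 24 to 48 h, a comparison added after the values were seen, was called by limma for 0 of 7, with 2 at an unadjusted p under 0.05 and 2.96% of all genes called. It was 2.07 for TNFRSF12A (95% interval 1.15 to 2.98, adjusted p = 0.0191), 1.24 for FAS (0.59 to 1.89, adjusted p = 0.0400), and 0.10 for TNFRSF21 (-0.30 to 0.50). The change of TNFRSF21 itself from 24 to 48 h was -1.28 in COLO858 and -1.38 in MMACSF (adjusted p = 0.0489), where it was not past the threshold.

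**Figure D4:**
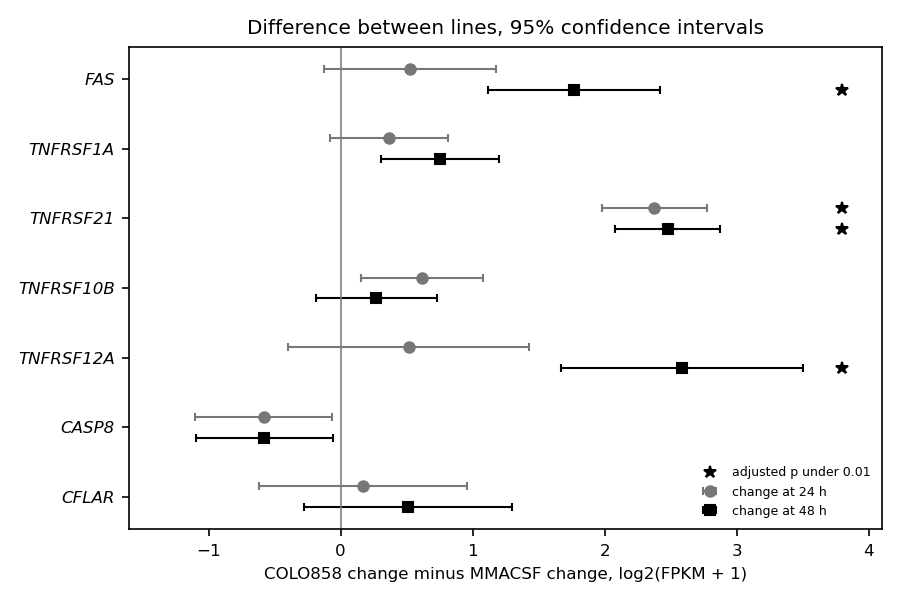
Change in COLO858 minus change in MMACSF (horizontal axis, log2(FPKM + 1)) for the 7 genes tested, at 24 h (gray circles) and 48 h (black squares). Bars are 95% confidence intervals from limma and stars mark an adjusted p under 0.01. TNFRSF21 differs at both times, at 2.38 and 2.48, and FAS and TNFRSF12A at 48 h, at 1.76 and 2.58.

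The members were also set among the other genes of the pathway, 65 symbols in lists of ligands, other receptors of the family, adaptors, ubiquitin and IAP regulators, downstream caspases, and necroptosis genes. In COLO858 44 of the 65 were tested, of which 1 was higher and 2 lower at 24 h (6.82%, beside 9.82% of all genes) and 2 were higher and 3 lower at 48 h (11.4%, beside 9.47%). In MMACSF 45 were tested, of which 1 was lower at 24 h (2.22%, beside 5.83%) and 2 were lower at 48 h (4.44%, beside 8.83%), with 0 higher. Their median log2 change against DMSO was -0.06 (24 h) and 0.01 (48 h) for COLO858 and 0.10 and 0.16 for MMACSF, next to the medians of all genes given above.

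Other receptors called against DMSO were NGFR, TNFRSF14, and RELT. NGFR, which encodes the neurotrophin receptor p75, was at 2.89 and 2.82 FPKM in DMSO, 1.96 and 1.36 at 24 h, and 49.9 and 39.8 at 48 h in COLO858. It rose by 3.56 on the log2 scale at 48 h (adjusted p = 0.000666), whereas in MMACSF its change was -1.23 (adjusted p = 0.0178) and the lines differed by 4.79 (adjusted p = 3.99e-05). TNFRSF14, the receptor HVEM, was at 42.4 and 32.7 FPKM in DMSO and 136 and 106 at 24 h in COLO858, a rise of 1.66 (adjusted p = 0.00569). RELT, an orphan receptor, was lower in all 4 comparisons with DMSO, with changes of -1.36 and -0.95 for COLO858 and -1.41 and -1.56 for MMACSF.

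Further downstream the calls were few. PEA15, a death effector domain protein that can bind FADD and caspase-8, was at 40.6 and 44.7 FPKM in DMSO, 35.9 and 37.8 at 24 h, and 136 and 151 at 48 h in COLO858, a rise of 1.72 at 48 h (adjusted p = 0.00155). In MMACSF it was at 143 and 154 in DMSO and 84.4 and 92.5 at 48 h, and the lines differed by 2.46 (adjusted p = 5.33e-05). TNFAIP3, the ubiquitin-editing enzyme A20 and itself a target of NF-κB, went from 23.8 and 25.9 FPKM in DMSO to 2.11 and 1.72 at 24 h and 2.04 and 2.19 at 48 h in COLO858. It fell there, with changes of -3.15 and -3.05 (adjusted p = 0.000678 and 0.000553), and its change differed from that of MMACSF by -2.14 and -2.23 (adjusted p = 0.000296 and 9.44e-05). In MMACSF TNFAIP3 was lower as well, with means of 2.89 FPKM in DMSO, 0.937 at 24 h, and 1.20 at 48 h. Neither drug group overlapped DMSO there, but limma did not call the changes.

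Among ligands 1 of 2 tested in COLO858 was lower at 48 h, TNFSF13B (BAFF), from 1.21 and 1.80 FPKM to 0.0639 and 0.181 (adjusted p = 0.00916). MLKL, the effector of necroptosis, was lower at 48 h in MMACSF, from 5.11 and 5.67 FPKM to 2.18 and 2.13 (adjusted p = 0.00888). RIPK3, the kinase that activates MLKL, was listed at 0 in all 12 libraries. Of the 9 downstream caspases and mitochondrial genes, limma called 0 in any comparison with DMSO, while an unadjusted p under 0.05 was reached by 2 (24 h) and 0 (48 h) of them for COLO858 and by 1 and 3 for MMACSF. FADD, the adaptor between receptor and caspase-8, was at 11.7 and 9.68 FPKM in DMSO and 8.31 and 7.00 at 48 h in COLO858, and at 40.9 and 31.8 and then 34.5 and 27.1 in MMACSF, with changes of -0.44 and -0.23 that were not past the threshold. With 1 of 4 libraries left out, the calls against DMSO named here were kept in 4 of 4 fits for TNFAIP3 at 48 h in COLO858, in 3 of 4 at 24 h, and in 2 of 4 for NGFR at 48 h, and in 0 of 4 for the others (adjusted p up to 0.0674). The line differences of NGFR, PEA15, and TNFAIP3 were kept in 8 of 8.

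**Figure D5:**
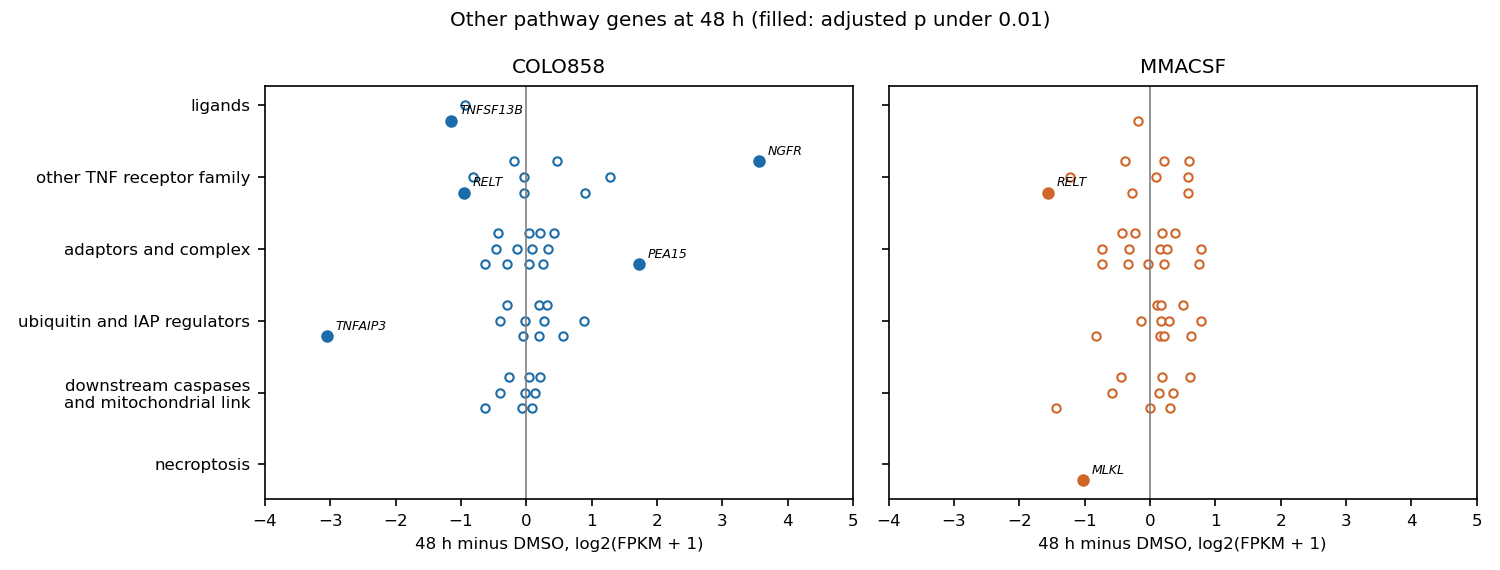
Change in log2(FPKM + 1) at 48 h against DMSO (horizontal axis) of the other pathway genes tested, by role (rows), in COLO858 (left, blue) and MMACSF (right, orange). Each circle is a gene, and filled circles are named and have an adjusted p under 0.01 (limma). NGFR at 3.56 and PEA15 at 1.72 stand to the right in COLO858 and TNFAIP3 at -3.05 to the left.

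Genes with the most similar profile were sought by Pearson correlation of log2(FPKM + 1), centered within each line, over the 12 libraries and among 6172 genes. The 12 points share 6 groups and 2 scalings, so these are descriptions with no test. FAS was most like LIMA1 (r = 0.991) and RHOJ (0.983), and TNFRSF12A most like ACTN1 (0.988) and CDC45 (0.986). TNFRSF21 was most like ADI1 (0.980) and FBXO32 (0.957), and TNFRSF10B most like B4GALT5 (0.972). For TNFRSF1A the nearest were POLR2A (0.921) and ID3 (0.913), for CASP8 COPG2 (0.933) and TUBGCP4 (0.924), and for CFLAR HMGN3 (0.912) and FUNDC1 (0.900).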

How the data were processed

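Poly-A RNA of COLO858 and MMACSF cells, with ERCC controls added, was made into strand-specific libraries and read for 50 bases from one end. Mapping by the authors used TopHat defaults on hg19, followed by Cuffdiff on Galaxy. The values are the FPKM that the authors deposited, in 1 table per line. Program versions, annotation, strand setting, and library scaling are not given in the sources used here. Whole reads could not be recovered, since ratios of low values between any pair of libraries gave at most 20.7% of genes within 0.05 (log2) of each other, so no count test was run. How reads of overlapping and related genes were divided could shift the levels of those named as such. Of the sample columns 0 were left out, and the tables hold no comparisons by the authors.

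Each line was fitted with limma 3.58.1 in R 4.3.3, as 3 groups on log2(FPKM + 1) with a mean-variance trend, for genes whose mean reached 1 FPKM in some group. Tests were two-sided with Benjamini-Hochberg adjustment over all genes tested and a threshold of 0.01, the study's. Line differences were interactions in a model of 6 groups. Levels were tested only within a line, since the tables may be scaled apart. Means ± SD are in FPKM, and the ratio of CFLAR to CASP8 was tested by exact permutation. All members are named. Other pathway genes are named where past the threshold against DMSO, at most 4 per list, and by role for FADD, CASP10, TNFRSF10C, RIPK3, and the ligands, which were added after their values were seen. TRAF1 and TNIP1 were also added then, for their line differences at 48 h. The 2 genes with the most similar profile are named for each member tested, and 1 of these is not reported here. The members and lists were chosen with earlier results of these data known. Gene positions are from GENCODE v44 lifted to GRCh37 and promoters from RefSeq. Alternatives were 0.1 FPKM added, no minimum or a minimum of 10 FPKM, 2 rescalings, small RNA genes left out, no trend, only the groups compared, the replicate number as a block, and 1 library left out.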

Additional observations from a re-analysis of the deposited data

Results flagged for a closer look

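The change against DMSO differed between the lines, past the threshold of the limma interaction test, for 3 of the 7 genes tested, and each is given here because the lines responded differently to the same treatment. TNFRSF21 differed by 2.38 at 24 h and by 2.48 at 48 h on the log2 scale. It was higher than in DMSO in 4 of 4 drug-treated libraries of COLO858 and, at 48 h, lower in 2 of 2 libraries of MMACSF. FAS differed by 1.76 at 48 h and was higher than in DMSO in 2 of 2 libraries of each line at that time. TNFRSF12A differed by 2.58 at 48 h and was lower than in DMSO in 2 of 2 libraries of each line. With 2 libraries per group no search for outlying libraries was made.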

How the results depend on the processing

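For the 7 genes in 9 comparisons, 63 values in all, every direction and call was the same when limma was fitted without a trend and when small RNA genes were left out. Adding 0.1 FPKM changed no call, and a minimum of 10 FPKM changed none of the 42 values it left. With no minimum 8 calls were lost, leaving 1 member called at 24 h, 1 at 48 h, and 1 between these times in COLO858, 0 at 24 and 48 h in MMACSF, and 1 between the lines at 48 h. The share of all genes called then fell to between 0.730% and 2.59% against DMSO. It fell to 0.412% from 24 to 48 h in COLO858 and to 4.65% between the lines at 48 h. A spread from only the groups compared lost 8, leaving 1 at 48 h and 0 between 24 and 48 h in COLO858, 0 at both times in MMACSF, and 1 between the lines at 48 h. Of all genes 0.468% to 3.76% were then called against DMSO, 0.102% from 24 to 48 h in COLO858, and 4.9% between the lines at 48 h. Median-ratio rescaling ended the call of TNFRSF12A from 24 to 48 h in COLO858 (adjusted p = 0.0120) and added that of FAS (adjusted p = 0.00982). Equal sums without small RNA left 1 at 48 h in MMACSF, added TNFRSF1A between the lines at 48 h (adjusted p = 0.00747), and put the median change of all genes for COLO858 at 0.24 (24 h) and 0.19 (48 h), and elsewhere at 0.12 or less. With 1 library left out the members called numbered 0 to 1 at 24 h, 0 to 0 at 48 h, and 0 to 0 between these times in COLO858, 0 to 0 in each comparison of MMACSF, 1 to 1 and 1 to 2 between the lines at 24 and 48 h, and 0 to 1 for the change from 24 to 48 h. Of all genes, 0.520% to 1.09% were then called against DMSO in COLO858, 0.357% to 0.992% in MMACSF, and 1.38% to 5.22% between the lines. These fits have fewer samples, which is part of their construction, and other causes were not tested. Of the pathway genes, TNFRSF14, RELT, TNFSF13B, and MLKL each lost a call against DMSO with no minimum and with only the groups compared. TNFRSF14 also lost it under median-ratio rescaling, MLKL under equal sums, and TNFSF13B and RELT at 48 h in COLO858 under equal sums and with 0.1 FPKM added.

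The replicate numbers are shared by the groups, but the labels do not say that they mark a common batch. Deviations of same-numbered libraries correlated at 0.196 to 0.211 in COLO858 and 0.0628 to 0.113 in MMACSF over all genes tested, and at 0.753 to 0.779 and 0.590 to 0.673 without small RNA genes. TNFRSF1A and TNFRSF12A were higher in replicate 1 in 6 of 6 groups, and FAS, TNFRSF10B, and CASP8 in replicate 2 in 6 of 6. With the replicate block 4, 6, and 4 members were called at 24 h, at 48 h, and between them in COLO858, 2 at 24 h and 3 at 48 h in MMACSF, and between the lines 2 at 24 h, 4 at 48 h, and 2 for the change from 24 to 48 h. Of all genes 45.0%, 43.7%, and 18.0% were then called in COLO858, 26.1%, 30.1%, and 0.254% in MMACSF, and 17.6%, 25.3%, and 13.0% between the lines. The block lost none of the calls made without it. Against DMSO in COLO858 it added FAS and TNFRSF1A at 24 h (adjusted p = 0.00119 and 0.00404, limma). At 48 h it added TNFRSF1A (0.00356), TNFRSF10B (0.006855), TNFRSF12A (0.00143), and CASP8 (0.00250). In MMACSF it added TNFRSF10B at 24 h (0.00888) and at 48 h (0.00605).

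Direction was reversed for small differences, none of them past the threshold. Median-ratio rescaling gave -0.03 for TNFRSF10B at 24 h in COLO858 and -0.09 for TNFRSF1A at 24 h in MMACSF. From 24 to 48 h in MMACSF TNFRSF12A was at -0.02 with 0.1 FPKM added and at 0.00 with equal sums. With 1 library left out, ranges that crossed 0 were -0.11 to 0.15 for TNFRSF1A and -0.22 to 0.33 for CFLAR from 24 to 48 h in COLO858, and -0.11 to 0.14 for TNFRSF1A and -0.07 to 0.46 for CFLAR at 24 h in MMACSF. For TNFRSF10B at 24 h in COLO858 the range was -0.03 to 0.19. At 48 h in MMACSF they were -0.28 to 0.02 for CASP8 and -0.19 to 0.01 for CFLAR, and from 24 to 48 h -0.21 to 0.08 for TNFRSF10B and -0.42 to 0.42 for TNFRSF12A. Between the lines they were -0.09 to 0.43 for CFLAR at 24 h and, for the change from 24 to 48 h, -0.04 to 0.24 for TNFRSF21 and -0.12 to 0.13 for CASP8.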
